A study of Mus musculus with 16 samples.

Results

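The extracellular matrix of the liver was followed through the collagens, laminins, fibulins, small proteoglycans, lysyl oxidases, matrix metalloproteinases with their tissue inhibitors, Adamts proteins and the growth factors Tgfb1 and Ccn2. Members were chosen by gene symbol alone, which gave 145 probes for 103 genes, and were kept when detected above background (detection p-value under 0.05) on every array of at least 1 diet group. That left 39 probes for 35 genes, out of 11143 probes so detected and 25697 on the array. Livers came from 13 male C57BL/6 mice, bought at 104 weeks of age and held on the AIN-93G standard diet, which all groups shared. EOW mice (n = 5) had 1% metformin, a biguanide given for diabetes, in that diet every other week. In 2WM mice (n = 4) the same 1% metformin diet was given for 2 weeks in a row each month, and SD mice (n = 4) had the standard diet alone, all for 17 weeks. The study's legend for its array analysis gives n = 4 for EOW, whereas the labels list 5 EOW mice, all of which were used here. Whether an EOW or 2WM liver was taken in a week on or off the drug is not given in the labels used here. The study states that both groups were on metformin for its blood analysis at 17 weeks. It also describes the EOW mice as on metformin at sacrifice. Levels are log2 signals scaled within each array and given relative to the array mean, so that 0 is the mean probe of an array and the median probe lies between -0.75 and -0.69. Differences between groups are log2 fold changes on that scale.

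In liver the matrix is thin and lies mainly around portal tracts and in the space between sinusoidal endothelium and hepatocytes. Hepatic stellate cells, portal fibroblasts and endothelial cells make most of it, fibrillar collagens give it tensile strength, and collagen IV with laminins forms sheet-like networks. Metalloproteinases and Adamts proteases cleave these proteins, Timp proteins inhibit the proteases, and TGF-beta with its downstream target Ccn2 is the classic inducer of matrix synthesis in liver fibrosis. These arrays measured RNA of whole liver, in which fewer cells of a type and less RNA per cell cannot be told apart.

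Median signal per array was 127.2 to 164.5 in EOW, 161.5 to 178.1 in 2WM and 145.3 to 184.9 in SD, with 11457 to 12953 probes detected per array. Arrays of EOW mice 1 to 4, at 127.2 to 147.2, lay below every 2WM array. EOW mouse 4 correlated at 0.841 to 0.888 with the others, while the 12 other mice correlated at 0.950 to 0.991 with each other. In that liver the tested genes of the T and NK cell list lay 3.56 log2 units above the SD mean (median of 5 genes). These were the T cell markers Cd3d, Cd3e, Cd3g, Cd8b1 and Thy1, whereas the NK cell markers Nkg7, Klrb1c and Ncr1 were not tested. EOW values that changed sign or moved by over 1.5 times without EOW mouse 4 are also given without it, as are calls at an unadjusted p of 0.05 that were lost. Hepatocyte markers were read in all groups (Apoa1, Ttr, Cps1, Ass1, Hnf4a, Cyp3a11 and Serpina1a), whereas the probes for Alb and Tat were not detected on every array of any group. Labels and files used here name no slide or scan batch, and all 3 contrasts below share mice.

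No matrix probe passed an adjusted p of 0.05 from limma in any of the 3 comparisons, and neither did any of the 11143 probes (0% called). In EOW against SD, 15 of the 39 matrix probes had an unadjusted p under 0.05, 13 higher and 2 lower, where 13.8% of all probes did (5.59% higher, 8.25% lower). These were 14 of 35 genes, namely Ccn2, Adamtsl4, Mmp12, Bgn, Dcn, Col6a1, Lum, Timp3, Timp2, Col4a1, Col3a1 and Mmp17 on the higher side and Col5a3 and Col27a1 on the lower side. Among them Mmp17 was tested through EOW alone, Mmp12 through the metformin groups and Col27a1 through SD alone, so their direction was part of their selection. With a stricter filter (detection p-value under 0.01) 11 of 31 matrix probes were higher and 0 lower (5.75% and 8.40% of all probes). Median centring of the arrays gave 8 higher and 3 lower, where 2.59% of all probes were higher and 14.5% lower. There were 10 higher and 1 lower without EOW mouse 4 (5.64% and 8.37% of all probes), and without EOW mouse 5 there were 19 and 2 (7.03% and 7.83%). Without SD mouse 3 there were 8 higher and 0 lower (3.42% and 4.75%). In 2WM against SD only Adamts5 reached that level (1 of 39 matrix probes, higher, against 5.93% of all probes, 2.23% higher and 3.71% lower). Adamts5 did not under median centring, where 1 other matrix probe, a lower one, did so (11.4% of all probes were lower). Between EOW and 2WM 5 matrix probes did (4 higher, 1 lower), against 10.7% of all probes (5.26% higher, 5.40% lower). In the test over all 3 groups 8 matrix probes had an unadjusted p under 0.05, against 11.9% of all probes. Under the criteria of the study's methods (a pairwise p and a p over all groups each under 0.05, a z-ratio beyond 1.5 in size, and at most 0.3 as the false discovery rate), 6 matrix probes were called in EOW against SD, all higher, for Ccn2, Bgn, Dcn, Mmp12 and Col6a1 (both probes), where 3.16% of all probes were called (1.28% higher, 1.88% lower). They called Dcn alone in 2WM against SD (2.59% of all probes, 1.10% higher, 1.49% lower), and Ccn2 and both Col6a1 probes, higher, in EOW against 2WM (2.76% of all probes, 1.04% higher, 1.72% lower).

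The median log2 fold change of the 39 matrix probes was 0.31 in EOW against SD, where that of all tested probes was -0.026. In 2WM against SD the medians were 0.13 for matrix probes and -0.026 for all probes, and in EOW against 2WM 0.16 and 0.0029. Positive values were found for 29 of 35 genes in EOW and for 30 of 35 in 2WM, both against SD, where 44.8% and 43.2% of all probes were positive. The median in EOW was 0.24 without EOW mouse 4, against -0.035 for all probes, and 29 of 39 matrix probes were positive in place of 32. The median in 2WM against SD was 0.081 without 2WM mouse 1 and 0.036 with no filter on dim probes, and that in EOW against 2WM 0.093 without 2WM mouse 3 and 0.021 with no filter. In EOW against 2WM 25 genes were positive, against 50.7% of all probes. Under median centring 30 of 39 matrix probes were positive in EOW and 28 in 2WM, in place of 32 and 33. By mouse, the median difference of the 35 genes from the SD mean was 0.29, 0.33, 0.18, 0.44 and -0.096 in EOW mice 1 to 5. It was 0.22, 0.22, -0.0048 and 0.046 in 2WM mice 1 to 4, against 0.090, -0.095, -0.037 and 0.021 in SD mice 1 to 4. EOW mice 1 to 4 thus lay above every SD mouse and EOW mouse 5 level with the lowest SD mouse, while 2 of the 4 2WM mice lay above the SD range. Within EOW this shift was higher where the array's median signal was lower, in the order mouse 4 (127.2), 2 (128), 1 (140.5 and 143.5 on its 2 arrays), 3 (147.2) and 5 (164.5). The other groups did not show that order. SD mouse 2, lowest in signal (145.3), had the lowest SD shift, and SD mouse 1 (173 and 184.9) the highest. In 2WM the shift of 0.22 was found at the lowest signal (161.5 and 162.6, mouse 1) and at the highest (178.1, mouse 2). The part of signal in the shift was not tested.

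**Figure D1:**
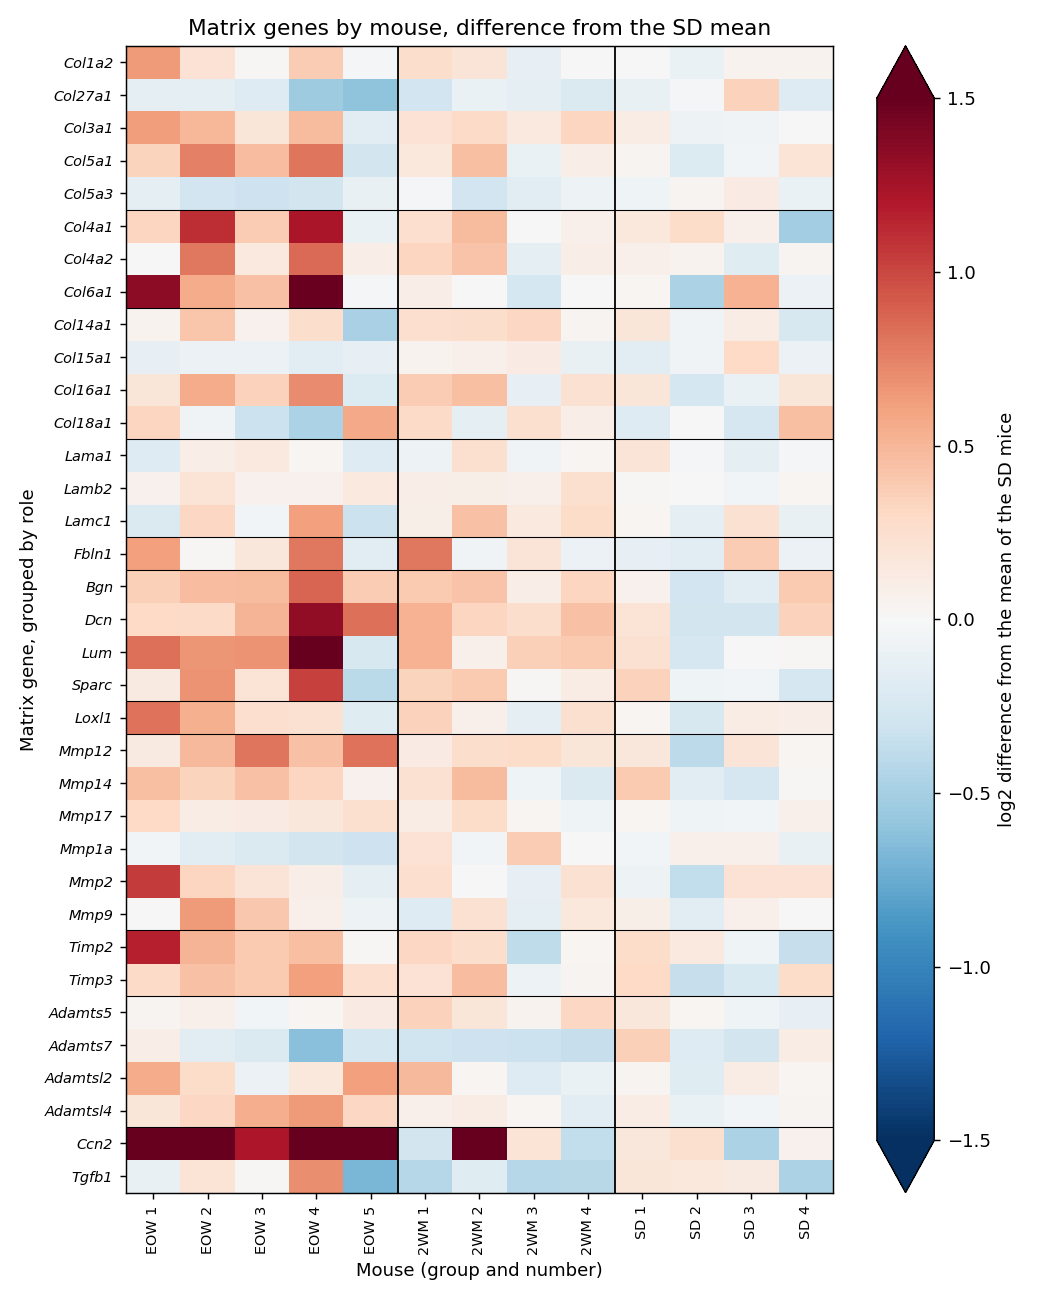
Each of the 35 tested matrix genes (rows, grouped by role) in each of the 13 mice (columns, EOW then 2WM then SD), coloured by its log2 difference from the mean of the SD mice, with the colour scale capped as its bar shows. EOW mice 1 to 4 are mostly red, EOW mouse 5 is mixed, and Ccn2 is deep red in EOW mice and in 2WM mouse 2.

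Growth factors came apart. Ccn2 (chromosome 10, 24595442 to 24598683 in GRCm38.p6) encodes connective tissue growth factor, a matricellular protein, and had the smallest adjusted p of the matrix probes in EOW against SD. Its level was 3.22, 3.29, 2.79, 3.89 and 3.11 in EOW mice 1 to 5. In 2WM mice it was 1.31, 3.66, 1.78 and 1.21, against 1.74, 1.81, 1.11 and 1.65 in SD mice. No EOW mouse overlapped the SD mice, and of the 2WM mice only number 2 lay in the EOW range, the others being within the SD range. Its difference from SD was 1.68 (standard error 0.42, adjusted p = 0.169 by limma), 3.21-fold, with an exact permutation p of 0.00794, the smallest that 5 mice against 4 allow. Against 2WM it was 1.27 (standard error 0.42, adjusted p = 0.32 by limma), and in 2WM against SD 0.41 with a 95% interval from -0.54 to 1.36. Without 2WM mouse 2 the adjusted p of limma was 0.0441 in EOW against SD and 0.0439 against 2WM, which passes 0.05. That mouse is not part of EOW against SD, where the log2 fold change stayed at 1.68, and enters it only through the spread shared by all groups. With EOW and SD fitted alone the adjusted p of Ccn2 was 0.191 by limma. Without EOW mouse 4 the value against SD was 1.52 (adjusted p = 0.187 by limma).

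Tgfb1, the ligand that drives matrix genes in stellate cells, showed no such pattern. Its level was 0.026, 0.34, 0.15, 0.84 and -0.55 in EOW mice 1 to 5. It was -0.29, -0.041, -0.29 and -0.28 in 2WM mice, against 0.32, 0.30, 0.28 and -0.33 in SD mice. EOW mice spanned the whole range, and the 2WM mice lay below 3 of the 4 SD mice. Tgfb1 differed from SD by 0.023 in EOW (95% interval -0.46 to 0.51), with the sign turned under neqc (-0.020) and median centring (-0.013), and -0.37 in 2WM (95% interval -0.88 to 0.15). The value in EOW was -0.15 without EOW mouse 4. Tgfb2 and Tgfb3 were not tested, Tgfb2 being detected on 4 of 6 EOW arrays, 0 of 5 2WM arrays and 1 of 5 SD arrays.

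**Figure D2:**
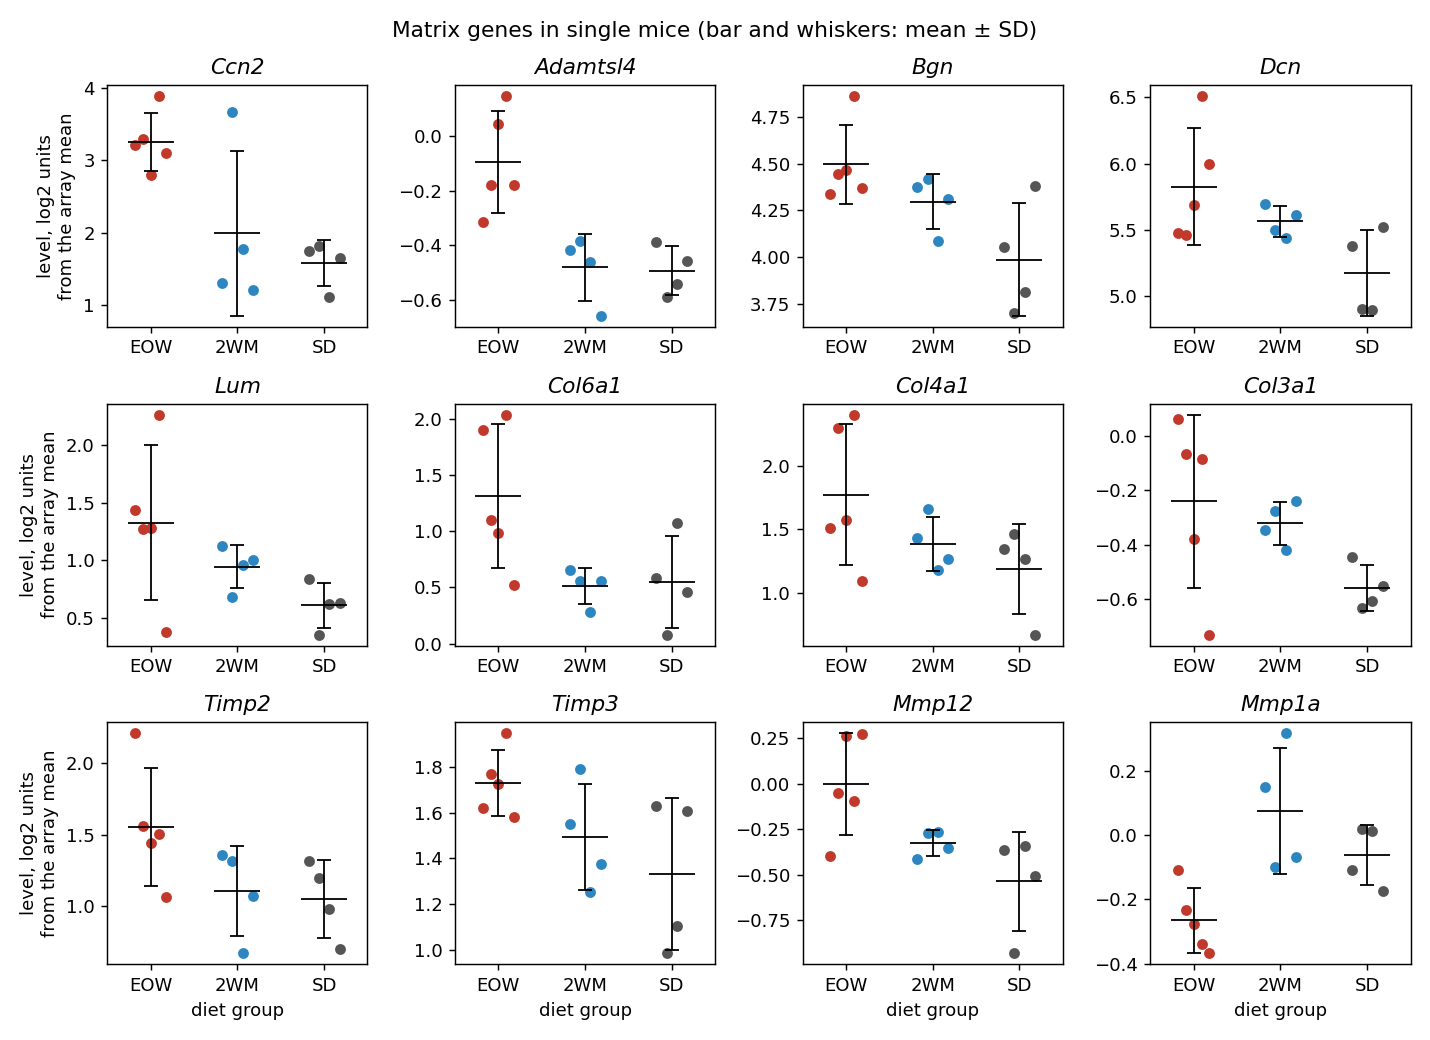
Level of 12 matrix genes in single mice (log2 units from the array mean, each panel with its own axis), by diet group in the order EOW, 2WM, SD, with the mean and SD as bar and whiskers. Ccn2 and Adamtsl4 of all EOW mice lie above all SD mice, whereas for Lum, Col3a1 and Col4a1 1 EOW mouse lies among or below the SD mice.

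Fibrillar collagens differed in direction from gene to gene. Col3a1, which forms thin reticular fibres, had 0.063, -0.066, -0.38, -0.085 and -0.73 in EOW mice 1 to 5. In 2WM mice it had -0.35, -0.28, -0.42 and -0.24, against -0.44, -0.63, -0.61 and -0.55 in SD mice. EOW mice 1 to 4 and all 2WM mice lay above all SD mice, and EOW mouse 5 below them. Against SD the value was 0.32 in EOW (standard error 0.14, unadjusted p = 0.0377, adjusted p = 0.334 by limma) and 0.24 in 2WM (standard error 0.15, adjusted p = 0.889 by limma). Without EOW mouse 4 the unadjusted p in EOW was 0.0712. Col1a2, the second chain of type I collagen, had 0.065, -0.35, -0.56, -0.19 and -0.58 in EOW mice. It had -0.31, -0.37, -0.69 and -0.57 in 2WM mice, against -0.58, -0.67, -0.52 and -0.52 in SD mice. EOW mice 1, 2 and 4 lay above the SD range and the other EOW mice within it, and the log2 fold change of 0.25 had a 95% interval from -0.04 to 0.53 and was 0.15 without EOW mouse 1. Col1a1 was not tested, being detected on 4 of 6 EOW, 2 of 5 2WM and 1 of 5 SD arrays. Col5a1, which nucleates type I fibrils, had 0.41 in EOW (95% interval -0.01 to 0.84).

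Minor fibrillar chains lay on the other side. Col5a3 had -0.54, -0.69, -0.71, -0.69 and -0.51 in EOW mice 1 to 5. It had -0.43, -0.69, -0.58 and -0.48 in 2WM mice, against -0.47, -0.37, -0.28 and -0.50 in SD mice. Each EOW mouse was below each SD mouse, with a mean difference of -0.22 (standard error 0.08, adjusted p = 0.283 by limma, exact permutation p = 0.0159). Such complete separation held for 5 matrix probes in EOW (4 higher, 1 lower), where 4.15% of all probes were separated (1.75% higher, 2.40% lower). The higher ones were Ccn2, Adamtsl4, Mmp17 and Lamb2, of which Mmp17 and Lamb2 were tested through EOW alone, and under the stricter filter Ccn2 and Adamtsl4 were left. Col27a1 had -0.61, -0.61, -0.66, -1.01 and -1.07 in EOW mice and -0.76, -0.57, -0.62 and -0.69 in 2WM mice, against -0.59, -0.50, -0.13 and -0.67 in SD mice. Its log2 fold change was -0.32 in EOW (standard error 0.13, adjusted p = 0.311 by limma), with EOW mice 4 and 5 lowest, and without EOW mouse 4 the unadjusted p was 0.0652. Without SD mouse 3 the log2 fold change was -0.21. Col27a1 was tested because it was detected on all SD arrays (5 of 5, with 4 of 6 EOW and 2 of 5 2WM arrays), so its lower values elsewhere were part of its selection. Both genes lie near the median probe of the arrays, as do Col3a1 and Col1a2 in SD mice.

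Network-forming collagens were higher in most EOW livers. Col6a1, a chain of the beaded filaments around cells, had 1.90, 1.10, 0.99, 2.04 and 0.52 in EOW mice 1 to 5. In 2WM mice it had 0.65, 0.56, 0.28 and 0.56, against 0.58, 0.081, 1.07 and 0.46 in SD mice. EOW mice 1, 2 and 4 lay above all other mice, mouse 3 above all but 1 SD mouse, and mouse 5 among the SD and 2WM mice. Col6a1 differed by 0.76 against SD (standard error 0.28, adjusted p = 0.281 by limma) and 0.80 against 2WM (standard error 0.28, adjusted p = 0.363 by limma), with 0.58 and 0.61 when EOW mouse 4 was left out. A second probe of Col6a1 gave 0.68 against SD and 0.60 against 2WM. Col4a1, which with Col4a2 makes the main collagen IV trimer of basement membranes, had 1.51, 2.30, 1.57, 2.41 and 1.09 in EOW mice. It had 1.43, 1.66, 1.18 and 1.26 in 2WM mice, against 1.35, 1.46, 1.27 and 0.67 in SD mice. EOW mice 1 to 4 lay above the SD mice and mouse 5 among them, with a difference of 0.59 from SD (standard error 0.26, unadjusted p = 0.0384, adjusted p = 0.335 by limma) that had an unadjusted p of 0.0865 without EOW mouse 4.

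Col4a2 had 0.41, 1.196, 0.55, 1.25 and 0.50 in EOW mice 1 to 5. It had 0.72, 0.83, 0.27 and 0.50 in 2WM mice, against 0.48, 0.46, 0.22 and 0.45 in SD mice. EOW mice 2 and 4 stood out for both chains, and the log2 fold change of Col4a2 was 0.38 (95% interval -0.03 to 0.78). The 2 genes are neighbours on chromosome 8 (11198423 to 11312889 for Col4a1 and 11312805 to 11449287 for Col4a2 in GRCm38.p6). Over the 13 mice their levels correlated at r = 0.85 (permutation p = 0.00123, adjusted 0.00356) and rho = 0.66 (permutation p = 0.0149, adjusted 0.0199). Pearson's r was 0.79 within groups, 0.76 without EOW mouse 4, and 0.43 without EOW mice 2 and 4, so the relation rested on those mice in large part. Of the 4 pairs compared, Col3a1 with Col5a1 had r = 0.78 (permutation p = 0.00178, adjusted 0.00356) and rho = 0.78 (permutation p = 0.00272, adjusted 0.0109), with r = 0.83 without EOW mice 1 and 5 and 0.73 within groups. Ccn2 with Col4a1 had r = 0.65 (permutation p = 0.0114, adjusted 0.0152) and rho = 0.69 (permutation p = 0.0113, adjusted 0.0199), with r = 0.49 without EOW mouse 4 and 2WM mouse 2 and 0.41 within groups. These permutations moved mice across the groups, so differences between groups enter the p-values, and the values within groups were not tested.

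Remaining collagens and the laminins gave small values. Col16a1 and Col14a1, which decorate fibrils, differed from SD by 0.32 and 0.065 in EOW and by 0.24 and 0.22 in 2WM. Col15a1 had -0.12 in EOW and 0.037 in 2WM. Col18a1, the precursor of endostatin, had 0.010 in EOW and 0.12 in 2WM at its brighter probe and -0.20 and -0.050 at the other. When EOW mouse 4 was left out, the values in EOW were 0.014 for Col14a1 and 0.13 and -0.046 for the Col18a1 probes. The laminin chains Lama1, Lamb2 and Lamc1 had -0.022, 0.11 and 0.068 in EOW and 0.036, 0.13 and 0.23 in 2WM, and without EOW mouse 4 Lama1 had -0.036 and Lamc1 -0.068 in EOW. Lamb2 was tested through EOW alone (6 of 6 EOW, 4 of 5 2WM and 3 of 5 SD arrays detected), so higher values in EOW were part of its selection, and both EOW and 2WM mice lay above all SD mice for it. Lamb1 was detected on 3 of 6 EOW arrays and on no 2WM or SD array. Fbln1, a fibulin of elastic fibres and basement membranes, had 0.28 in EOW (0.16 without EOW mouse 4) and 0.21 in 2WM, and Fn1 was not analysed here.

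Small leucine-rich proteoglycans, which bind collagen fibrils and set their spacing, had higher means in EOW than in SD, EOW mouse 5 being second highest of its group for Dcn and lowest for Lum. Dcn, decorin, had 5.47, 5.46, 5.69, 6.51 and 6.00 in EOW mice 1 to 5. It had 5.70, 5.50, 5.44 and 5.61 in 2WM mice, against 5.38, 4.91, 4.90 and 5.52 in SD mice. SD mouse 4 lay above 2 EOW mice and 2 2WM mice, and the other 3 SD mice lay below every metformin-fed mouse. Dcn differed from SD by 0.65 in EOW (standard error 0.21, adjusted p = 0.227 by limma), 1.57-fold, and 0.39 in 2WM (standard error 0.22, adjusted p = 0.87 by limma), while the second probe gave 0.51 and 0.48. Bgn, biglycan, had 4.34, 4.44, 4.47, 4.86 and 4.37 in EOW mice. It had 4.37, 4.42, 4.09 and 4.31 in 2WM mice, against 4.05, 3.70, 3.81 and 4.38 in SD mice. All 4 2WM mice lay above SD mice 1 to 3, as did all EOW mice, and SD mouse 4 lay among them. Bgn differed from SD by 0.51 in EOW (standard error 0.15, adjusted p = 0.204 by limma) and 0.31 in 2WM (standard error 0.15, adjusted p = 0.844 by limma).

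Lum, lumican, had 1.44, 1.27, 1.28, 2.27 and 0.37 in EOW mice 1 to 5. It had 1.13, 0.68, 0.96 and 1.01 in 2WM mice, against 0.83, 0.35, 0.62 and 0.63 in SD mice. EOW mice 1 to 4 lay above all 2WM and SD mice and mouse 5 among the SD mice, with a difference from SD of 0.72 in EOW (standard error 0.27, adjusted p = 0.283 by limma) and 0.34 in 2WM (standard error 0.29, adjusted p = 0.926 by limma). Without EOW mouse 4 the values in EOW were 0.48 for Dcn, 0.42 for Bgn and 0.48 for Lum, with unadjusted p of 0.0101, 0.00798 and 0.0329. Dcn and Lum lie near each other on chromosome 10 (97479500 to 97518163 and 97565501 to 97572703), and their levels correlated at r = 0.65 (permutation p = 0.0232, adjusted 0.0232) and rho = 0.42 (permutation p = 0.152, adjusted 0.152). That relation did not hold without EOW mouse 4 and SD mouse 3 (r = 0.16). Sparc, a collagen-binding glycoprotein, had 2.05, 2.59, 2.13, 2.95 and 1.51 in EOW mice and 2.25, 2.31, 1.94 and 2.03 in 2WM mice, against 2.27, 1.86, 1.88 and 1.67 in SD mice. The groups overlapped, and its log2 fold change of 0.33 in EOW had a 95% interval from -0.18 to 0.84, with 0.15 without EOW mouse 4 and 0.51 without EOW mouse 5. A second probe of Sparc gave 0.085 in EOW, and -0.047 without EOW mouse 4. Loxl1, which cross-links elastin, had 0.33 in EOW (95% interval -0.05 to 0.71), and Lox was detected on 3 of 6 EOW arrays and on no other.

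**Figure D3:**
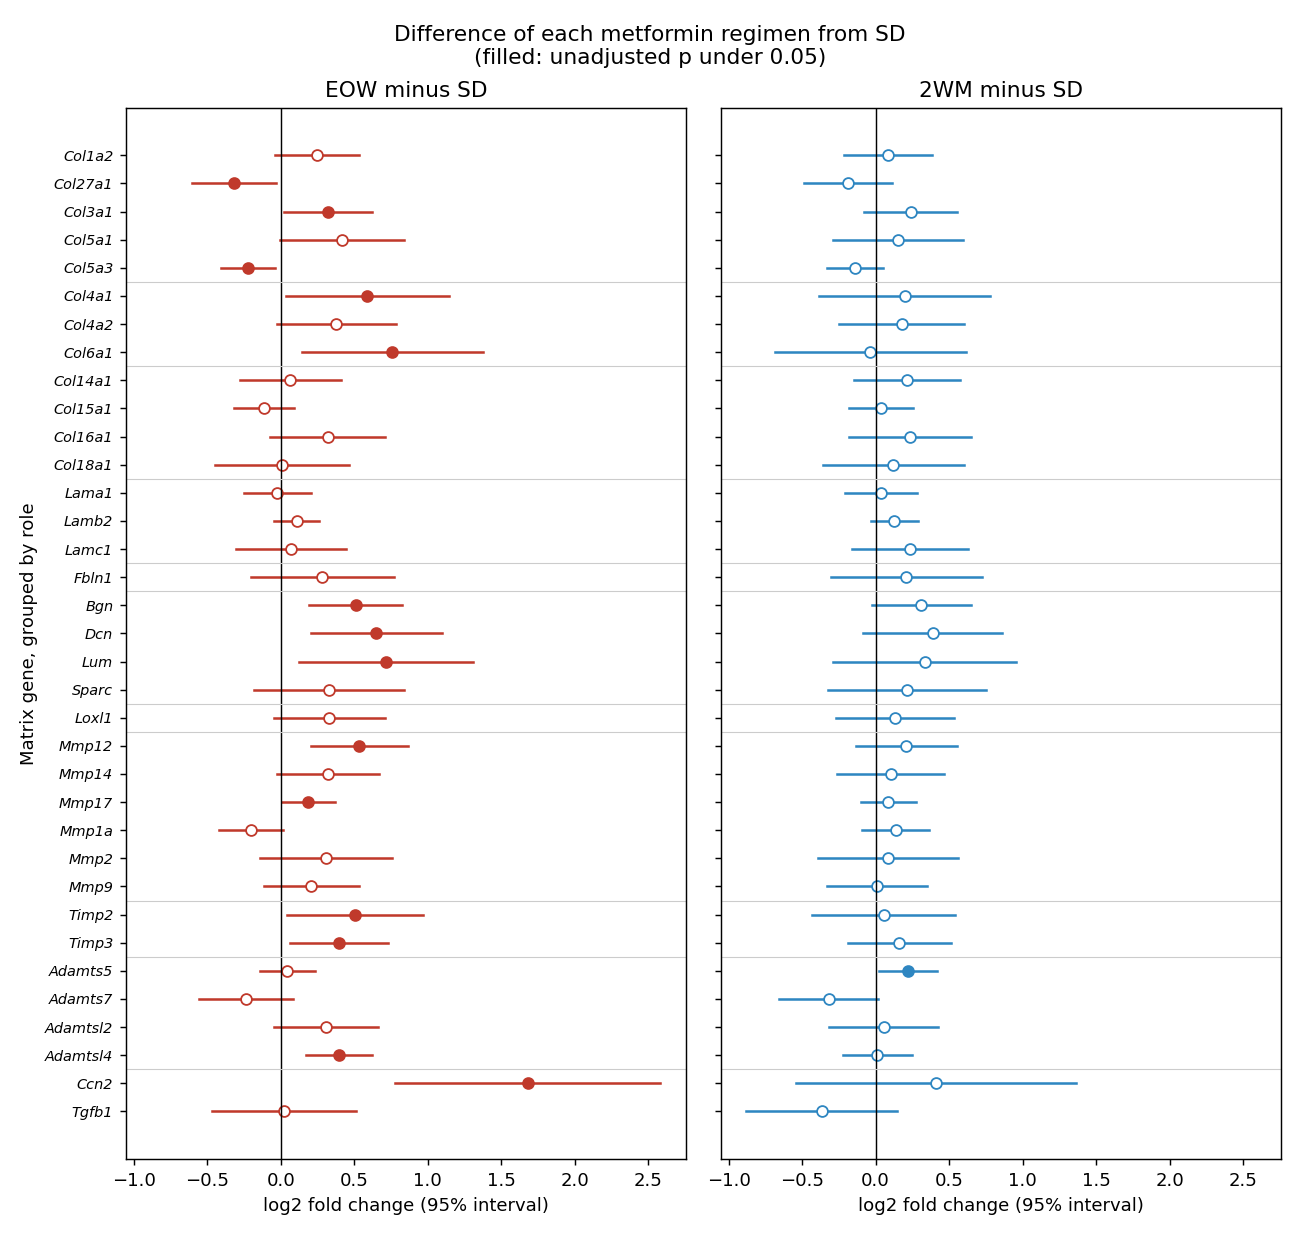
Log2 fold change of each of the 35 matrix genes with its 95% interval, for EOW minus SD (left) and 2WM minus SD (right), with filled points for an unadjusted p under 0.05. In EOW 14 points are filled and the highest is Ccn2 at 1.68, while in 2WM 1 is, Adamts5 at 0.22.

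Among the proteases, Mmp12, the macrophage elastase, had -0.40, -0.052, 0.26, -0.095 and 0.27 in EOW mice 1 to 5. It had -0.42, -0.27, -0.27 and -0.36 in 2WM mice, against -0.36, -0.93, -0.34 and -0.51 in SD mice. EOW mice 2 to 5 lay above all 2WM and SD mice, EOW mouse 1 among them. The log2 fold change was 0.54 in EOW (standard error 0.15, adjusted p = 0.199 by limma), 0.56 without EOW mouse 4, and 0.21 in 2WM (standard error 0.16, adjusted p = 0.913 by limma). Mmp12 was tested through the metformin groups alone (detected on 6 of 6 EOW, 5 of 5 2WM and 4 of 5 SD arrays), so higher values there were part of its selection. Kupffer cell and macrophage markers ranged over the mice of each group (EOW -0.95 to 0.57, 2WM -0.035 to 0.43, SD -0.49 to 0.62 as the median difference of 12 genes from the SD mean). EOW mouse 5 had the lowest of these markers, with 0 of 12 above the SD mean, and EOW mice 3 and 5 the highest Mmp12. The part of these cells in Mmp12 was not tested. Mmp17, a membrane-anchored metalloproteinase, had -0.46, -0.65, -0.63, -0.59 and -0.52 in EOW mice and -0.65, -0.48, -0.73 and -0.81 in 2WM mice, against -0.72, -0.82, -0.79 and -0.68 in SD mice. EOW and SD mice did not overlap (log2 fold change 0.19, standard error 0.08, adjusted p = 0.346 by limma), with an unadjusted p of 0.0504 without EOW mouse 4. Mmp17 entered through EOW alone (detected on 6 of 6 EOW, 2 of 5 2WM and 2 of 5 SD arrays), so higher values there were part of its selection, and it lies near the median probe of the arrays.

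Mmp1a, a mouse interstitial collagenase, went the other way between the regimens. It had -0.11, -0.23, -0.28, -0.34 and -0.37 in EOW mice 1 to 5. It had 0.15, -0.10, 0.32 and -0.069 in 2WM mice, and -0.11, 0.018, 0.012 and -0.17 in SD mice. Each EOW mouse was below each 2WM mouse, number 1 only just, and the difference from 2WM was -0.34 (standard error 0.10, adjusted p = 0.275 by limma, exact permutation p = 0.0159). Complete separation of EOW from 2WM held for 2 matrix probes (1 higher, 1 lower), against 3.96% of all probes (1.99% higher, 1.97% lower). Mmp1a was not separated with neqc, quantile normalization or the second arrays. The gelatinases were spread within groups. Mmp2, gelatinase A, had 1.16, 0.44, 0.31, 0.21 and -0.019 in EOW mice and 0.37, 0.10, -0.014 and 0.34 in 2WM mice, against 0.041, -0.26, 0.34 and 0.34 in SD mice. Mmp9, gelatinase B, had -0.35, 0.30, 0.063, -0.26 and -0.41 in EOW mice and -0.53, -0.12, -0.49 and -0.18 in 2WM mice, against -0.25, -0.51, -0.26 and -0.34 in SD mice. Neither separated the groups, and their log2 fold changes in EOW were 0.31 (95% interval -0.14 to 0.76) and 0.21 (95% interval -0.12 to 0.53). That of Mmp2 was 0.12 without EOW mouse 1 and that of Mmp9 0.10 without EOW mouse 2. Mmp14, the membrane enzyme that activates pro-Mmp2, had 0.32 (95% interval -0.02 to 0.67), and Mmp13 was not tested.

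The promoters of 3 members are shown because they belong to genes with an unadjusted p under 0.05, hold a TATA box, a GGAATG (the core of TEAD sites) or an AP-1 motif (TGANTCA), and have a window outside every annotated gene, whereas that of Mmp12, with an AP-1 motif, lies within Mmp12 itself and is not shown. Of the 35 genes, 23 matched the RefSeq promoter table for GRCm38.p6, and the 250 bases before each annotated start were searched on both strands. TATAAA was found in the windows of 3 of these 23 genes (12.4% of all 32851 windows), GGAATG in 2 (12.6%), TGANTCA in 3 (6.75%) and CCAAT in 8 (33.8%). A gene was counted for a match in any of its windows, while the percentages are of single windows, so the units differ. No motif overlaps another in the windows shown, which lie at chr1:45311288-45311537 (plus strand), chr10:76726045-76726294 (minus strand) and chr9:7463891-7464140 (plus strand), each written 5′ to 3′ with the matches in capitals. A match describes these letters only. In Col3a1 the TATAAA begins 117 bases and the reverse of GGAATG 168 bases before the start, in Col6a1 the AP-1 motif 90 bases before it, and in Mmp1a the TATAAA 28 and the AP-1 motif 73 bases before it.
Col3a1: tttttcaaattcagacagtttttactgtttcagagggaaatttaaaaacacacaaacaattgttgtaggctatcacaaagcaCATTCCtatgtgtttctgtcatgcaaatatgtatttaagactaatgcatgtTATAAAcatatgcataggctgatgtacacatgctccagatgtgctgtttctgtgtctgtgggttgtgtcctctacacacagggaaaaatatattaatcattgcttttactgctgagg
Col6a1: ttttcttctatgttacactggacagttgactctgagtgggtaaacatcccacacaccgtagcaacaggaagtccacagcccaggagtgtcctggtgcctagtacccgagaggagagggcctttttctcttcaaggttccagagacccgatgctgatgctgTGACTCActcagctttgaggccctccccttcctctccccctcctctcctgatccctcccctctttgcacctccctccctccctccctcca
Mmp1a: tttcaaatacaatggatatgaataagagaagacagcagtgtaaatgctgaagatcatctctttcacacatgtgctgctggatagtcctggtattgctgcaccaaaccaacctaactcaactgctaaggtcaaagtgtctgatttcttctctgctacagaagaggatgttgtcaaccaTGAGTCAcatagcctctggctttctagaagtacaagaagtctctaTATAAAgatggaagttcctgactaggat

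Both tested inhibitors of metalloproteinases were higher in EOW. Timp2, which also takes part in pro-Mmp2 activation, had 2.21, 1.56, 1.44, 1.504 and 1.07 in EOW mice 1 to 5. It had 1.36, 1.31, 0.67 and 1.07 in 2WM mice, against 1.32, 1.195, 0.98 and 0.70 in SD mice. EOW mice 1 to 4 lay above all 2WM and SD mice and mouse 5 among them. The log2 fold change was 0.51 in EOW (standard error 0.21, adjusted p = 0.32 by limma), 0.52 without EOW mouse 4, and 0.056 in 2WM (standard error 0.22, adjusted p = 0.998 by limma). Timp3, which stays bound to the matrix, had 1.62, 1.77, 1.73, 1.95 and 1.58 in EOW mice and 1.55, 1.79, 1.25 and 1.38 in 2WM mice, against 1.63, 0.98, 1.11 and 1.61 in SD mice. SD mice 1 and 4 lay close to the lowest EOW mice, and SD mice 2 and 3 far below them. The log2 fold change was 0.40 in EOW (standard error 0.15, adjusted p = 0.294 by limma), 0.34 without EOW mouse 4, and 0.16 in 2WM (standard error 0.16, adjusted p = 0.946 by limma). Timp1, the inhibitor most closely tied to fibrosis, was not tested. Its 2 probes were each detected on 5 of 6 EOW arrays, on 2 and 3 of 5 2WM arrays and on 1 and 2 of 5 SD arrays.

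Of the Adamts family, Adamtsl4, a secreted protein of fibrillin microfibrils that lacks protease activity, separated EOW from both other groups. It had -0.31, -0.18, 0.045, 0.15 and -0.18 in EOW mice 1 to 5. In 2WM mice it had -0.42, -0.39, -0.46 and -0.66, against -0.39, -0.59, -0.54 and -0.46 in SD mice. Every EOW mouse lay above every 2WM and SD mouse, by log2 fold changes of 0.40 against SD and 0.39 against 2WM (standard error 0.10 for each, adjusted p = 0.178 and 0.255 by limma, exact permutation p = 0.0159 for each). Without EOW mouse 4 these were 0.34 and 0.33, and in 2WM against SD the value was 0.013 (95% interval -0.22 to 0.25). In 2WM and SD mice Adamtsl4 lay near the median probe of the arrays. Under the other settings its log2 fold change ran from 0.34 to 0.99 against SD and from 0.33 to 0.96 against 2WM. Adamts5, an aggrecanase, had -0.51, -0.48, -0.59, -0.53 and -0.43 in EOW mice and -0.21, -0.37, -0.50 and -0.24 in 2WM mice, against -0.39, -0.52, -0.62 and -0.68 in SD mice. In 2WM 3 of 4 mice lay above all SD mice (log2 fold change 0.22, standard error 0.09, unadjusted p = 0.0298, adjusted p = 0.801 by limma), while the EOW mice lay within the SD range. Adamts5 lies near the median probe of the arrays. Adamts7 was lower in all 2WM mice than in any SD mouse (log2 fold change -0.32, adjusted p = 0.844 by limma, exact permutation p = 0.0286, the smallest that 4 mice against 4 allow), 1 of 3 matrix probes separated there (2 higher, 1 lower), against 5.82% of all probes (2.16% higher, 3.66% lower). The gap was narrow, with -0.384 in 2WM mouse 1 and -0.368 in SD mouse 3, while SD mice 1 and 4 had 0.26 and 0.027. Adamts7 was not separated with only the first arrays. Adamtsl2, which binds latent TGF-beta binding protein, had 0.31 in EOW and 0.057 in 2WM.

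Genes around the matrix were read in 5 further lists. Of 25 tested glycoproteins and proteoglycans outside the name rule, 7 were higher and 1 was lower in EOW at an unadjusted p under 0.05, where 5.59% and 8.25% of all probes were, with a median of 0.15. There were 6 higher and 1 lower without EOW mouse 4. In 2WM 2 were higher and 0 lower (2.23% and 3.71% of all probes), with a median of 0.11. Prelp, a proteoglycan that anchors basement membranes, had 4.03 ± 0.14 in EOW mice and 4.07 ± 0.19 in 2WM mice, against 3.54 ± 0.22 in SD mice (SD, n = 5, 4 and 4). Its log2 fold changes were 0.49 in EOW and 0.53 in 2WM (standard error 0.12 and 0.13, adjusted p = 0.176 and 0.442 by limma). Tnxb, a tenascin of collagen fibrils, had 0.48 and Tgfbi, a TGF-beta-induced matrix protein, 0.62 in EOW (adjusted p = 0.247 and 0.252 by limma), and the tenascin Tnc -0.27 (adjusted p = 0.298 by limma). Ogn, osteoglycin, had 0.41 in 2WM (adjusted p = 0.701 by limma). Collagen synthesis and processing stayed near 0, with a median of 0.058 over 16 genes in EOW, where 1 was higher and 0 were lower, the higher one being the collagenolytic cathepsin Ctsk at 0.53 (adjusted p = 0.269 by limma). That median was 0.033 without EOW mouse 4. In 2WM its member Fkbp14, a prolyl isomerase, had 0.38 (adjusted p = 0.81 by limma) and the median was 0.020.

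In the TGF-beta list 3 of 14 genes were higher and 3 lower in EOW, where 5.59% and 8.25% of all probes were, and so they were without EOW mouse 4. The receptor chain Tgfbr2 had 0.70 (standard error 0.21, adjusted p = 0.219 by limma), the co-receptor Tgfbr3 0.37 (adjusted p = 0.336 by limma, 0.21 without EOW mouse 4) and Smad4, the shared signal mediator, 0.27 (adjusted p = 0.247 by limma, exact permutation p = 0.00794). On the lower side Smad3, the receptor-activated mediator of matrix genes, had -0.44 (adjusted p = 0.223 by limma), the integrin Itgav -0.40 (adjusted p = 0.272 by limma) and the TGF-beta-induced Tsc22d1 -0.93 (adjusted p = 0.306 by limma). Tgfbr3, Itgav, Tsc22d1, above them Tnc and, among the markers that follow, Lrat, Rgs5 and Acta2 were named after their values were seen. In 2WM 0 of the 14 were past that level. Among 8 matrix receptors the dystroglycan Dag1 had 0.44 and the fibronectin receptor chain Itga5 -0.50 in EOW (adjusted p = 0.281 and 0.238 by limma), and in 2WM 0 were past it. Of 14 genes of the plasminogen system and other matrix proteases 0 were past it in either regimen, with medians of 0.044 in EOW (0.13 without EOW mouse 4) and 0.067 in 2WM.

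**Figure D4:**
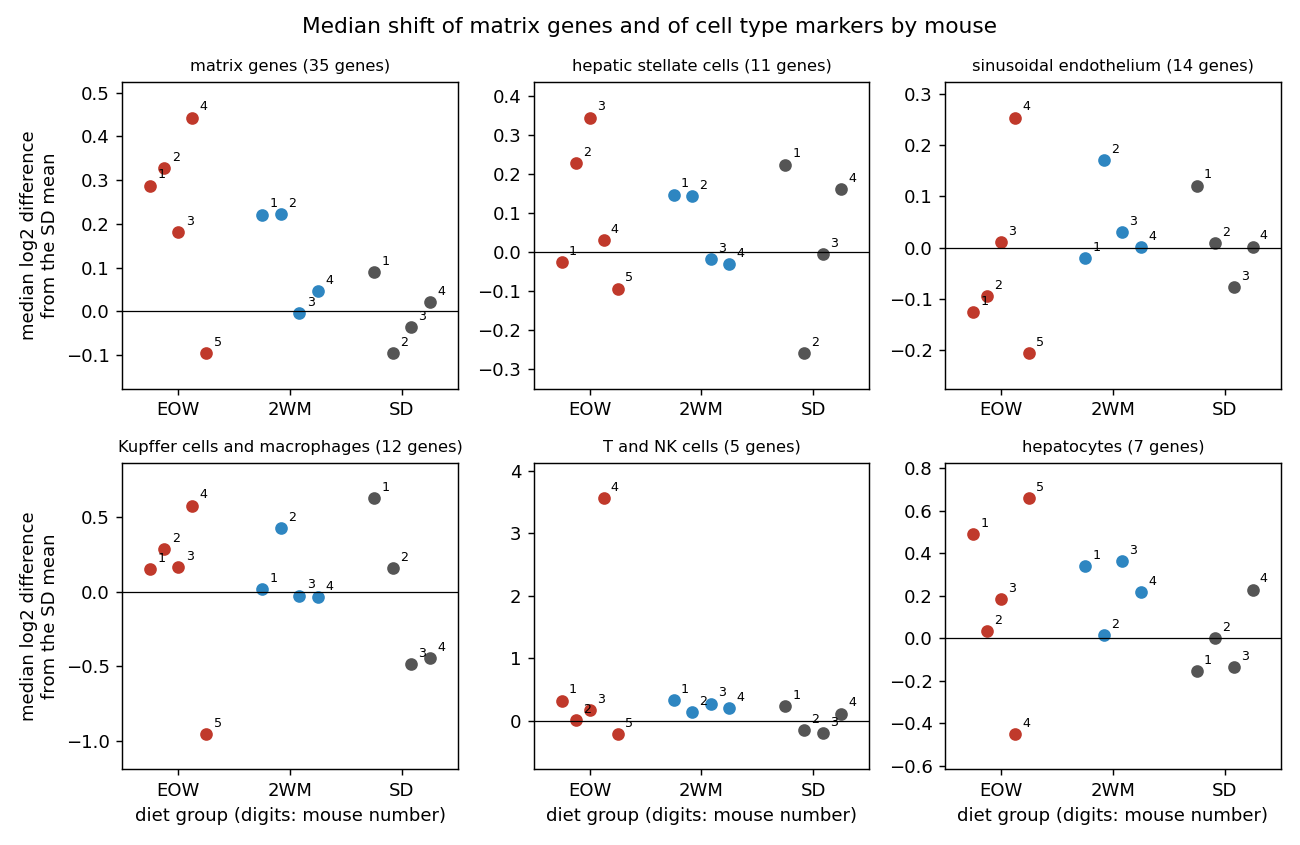
Median log2 difference from the SD mean for the 35 matrix genes and for 5 lists of cell type markers, 1 point per mouse with its number, by diet group in the order EOW, 2WM, SD and with an axis of its own per panel. Matrix genes of EOW mice 1 to 4 lie between 0.18 and 0.44, above all SD mice, while stellate cell and endothelial markers of the groups overlap. EOW mouse 4 lies apart for the T and NK cell list, whose tested genes are T cell markers.

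Cell type markers are given beside these values, and their part in them was not tested. Stellate cell markers, 11 tested of 15 on the array, had median differences of -0.094 to 0.34 in EOW mice and -0.031 to 0.15 in 2WM mice, against -0.26 to 0.22 in SD mice. In EOW 3 of the 11 were higher at an unadjusted p under 0.05, Des at 0.21, Pdgfra at 0.57 and Cygb at 0.65, and 0 were lower, against 5.59% and 8.25% of all probes. The median of the 11 was 0.068, with 6 positive and 5 negative, among them Lrat, the enzyme that esterifies retinol for storage, at -0.12. When EOW mouse 4 was left out, 2 of the 11 were higher and 1 lower (5.64% and 8.37% of all probes), the lower one being Rgs5 at -0.65 (unadjusted p = 0.00244 by limma). Lrat then had 0.093, and Des an unadjusted p of 0.0691. Gfap, Hgf, Hand2 and Vipr1 were not detected on every array of any group. Myofibroblast and smooth muscle markers had 0 of 3 past that level, with Acta2, smooth muscle actin, at 0.039 in EOW (-0.21 without EOW mouse 4) and 0.35 in 2WM. Sinusoidal endothelial markers, 14 of 14 tested, had -0.21 to 0.25 in EOW mice and -0.020 to 0.17 in 2WM mice, against -0.077 to 0.12 in SD mice, with Lyve1 at 1.09 and Dnase1l3 at -0.40 in EOW, where 1 was higher and 1 lower at that level, and 1 higher in 2WM. Portal fibroblast markers had 0 of 5 past that level. The T and NK cell list, read through T cell markers only, had -0.21 to 3.56 in EOW mice and 0.14 to 0.32 in 2WM mice, against -0.20 to 0.23 in SD mice. Hepatocyte markers (median of 7 genes) had 0.49, 0.033, 0.18, -0.45 and 0.66 in EOW mice 1 to 5. They had 0.34, 0.017, 0.36 and 0.22 in 2WM mice, against -0.15, 0.0021, -0.13 and 0.23 in SD mice, with 6 of 7 genes positive in each regimen. Markers of platelets and red cells, 3 tested of 5, had -0.80, -1.34, -0.81, -0.17 and -2.54 in EOW mice. They had -1.12, 0.18, -0.87 and -0.74 in 2WM mice, against 0.71, 0.43, -1.05 and -0.58 in SD mice. All 3 were negative in both regimens, with a median of -0.57 in EOW (-0.88 without EOW mouse 4) and -0.73 in 2WM. The lowest was Alas2, the first heme synthesis enzyme of red cell precursors, at -1.96 in EOW (adjusted p = 0.159 by limma). B and plasma cell markers had 0 of 3 past that level in EOW (1 higher without EOW mouse 4), with -0.35 to 0.58 in EOW mice and -0.15 to 0.62 in 2WM mice, against -0.081 to 0.076 in SD mice. Cholangiocyte markers had 0 of 2, with -0.21 to 0.19 in EOW mice and -0.040 to 0.019 in 2WM mice, against -0.065 to 0.065 in SD mice.

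The other 68 genes of the name rule had no tested probe. Of the 106 probes left out, 57 were detected on no array, 30 on 1 to 3 arrays and 19 on 4 or more, and 6 of them were 1 array short in some group. Of the 39 tested probes 30 were detected on every array of every group, 6 on every array of 2 groups and 3 on every array of 1 group.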

How the data were processed

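Liver RNA of 13 mice was read on 16 Illumina BeadArrays, 1 mouse of each group having a repeat array that was averaged with its first. The deposited intensity values are probe signals without normalization, exported with GenomeStudio 2011.1 per the submitters' processing notes. The deposited detection p-value of each probe gives the share of background beads at or above its signal. The authors' deposited Z score of each array equals the Z score of the log2 signal (largest difference 0.000106). Signals were turned to Z scores within each array and multiplied by the mean SD of the arrays, 1.46 log2 units. Probes entered the tests where all arrays of 1 group or more had a detection p-value under 0.05. The brightest such probe stands for its gene. All 3 groups were fitted together in limma 3.58.1 (R 4.3.3, statmod 1.5.0) with 10 residual degrees of freedom and Benjamini-Hochberg adjustment over 11143 probes. Permutation tests over mice were two-sided and exact, and those of the correlations used 100000 resamples of all mice without regard to group.

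The members and the gene lists were chosen with earlier results of these data known. Values of every mouse are given for members with an unadjusted p under 0.05 in any test and for a fixed set of collagens, proteases, inhibitors and growth factors whatever their values, and each list and comparison has at most 3 genes named, by smallest p, beside the genes said to be named after their values were seen. Lists without EOW mouse 4 were an alternative chosen after seeing the data. Of 25697 probes, 23978 have 1 gene symbol and 1719 none. Alternatives were neqc with offset 16, quantile normalization, median centring, the authors' Z scores, no filter or a stricter one (0.01), a replicate number block, a fit of 2 groups alone, only the first or second array, an intensity trend, array weights, genes in place of probes, the criteria of the study's methods, and each mouse left out. The number of arrays limits the precision. The fit was tested on simulated data.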

Additional observations from a re-analysis of the deposited data

Results flagged for a closer look

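In 69 groups of mice, from 23 results, 4 had 1 mouse set apart from the others of its group by a gap large for the group's range, and chance gives such a gap in about 1 group in 20. Bgn was 4.86 in EOW mouse 4, the nearest EOW mouse being at 4.47. Col4a2 was 0.22 in SD mouse 3, against 0.45 in the nearest SD mouse. Tgfb1 was -0.041 in 2WM mouse 2, where the nearest 2WM mouse had -0.28, and -0.33 in SD mouse 4, where the nearest SD mouse had 0.28.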

How the results depend on the processing

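Of 645 values of 25 single-gene results under 26 settings, 637 kept their direction and their side of an adjusted p of 0.05. Much of this was set in advance. The authors' Z scores equal the values used here. Log2 fold changes stay as they are with another filter, genes in place of probes, an intensity trend or 2 groups alone. Leaving out a mouse of the third group does not change them either. Most of these genes were chosen by an unadjusted p under 0.05 in these data, and none passed an adjusted p of 0.05 at first. Ccn2 passed it without 2WM mouse 2 (adjusted p of limma 0.0441 in EOW against SD and 0.0439 against 2WM), while with EOW and SD fitted alone its adjusted p was 0.191 by limma. Tgfb1 in EOW against SD turned to -0.020 with neqc, -0.013 with median centring and -0.068 with array weights, and to -0.13 without SD mouse 4, -0.021 without EOW mouse 2 and -0.15 without EOW mouse 4, the range with a mouse left out being -0.15 to 0.20. The causes were not tested. Matrix probes past an adjusted p of 0.05 numbered 0 to 1 with a mouse left out in EOW against SD and in EOW against 2WM. The criteria of the study's methods, which allow a false discovery rate of 0.3, called 6, 1 and 3 matrix probes in EOW against SD, 2WM against SD and EOW against 2WM. Of all probes they called 3.16%, 2.59% and 2.76%. At an unadjusted p of 0.05, EOW against SD gave 24 of 145 probes with no filter (9.62% of all probes). With a mouse left out it gave 8 (without SD mouse 3, 8.17% of all probes) to 21 (without EOW mouse 5, 14.9%). EOW against 2WM gave 13 with no filter (8.13% of all probes), 11 with array weights (16.1%) and 5 to 11 with a mouse left out (11 without EOW mouse 5, 12.6%). For 2WM against SD the counts were 2 with neqc, 5 with no filter, 6 with only the groups compared, 2 with an intensity trend, 9 with array weights and 0 to 4 with a mouse left out (4 without EOW mouse 4, 0 without 2WM mouse 1 or 4). Over 3 groups the counts were 14 with neqc, 19 with no filter, 19 with array weights and 6 to 17 with a mouse left out (17 without EOW mouse 5). Over 3 groups the shares of all probes under these settings were not taken. Matrix probes whose mice did not overlap numbered 8 with no filter, 2 with the stricter filter and 5 to 12 with a mouse left out in EOW against SD (12 without EOW mouse 5, where 6.77% of all probes did not overlap, and 9 without SD mouse 4). Matrix probes without overlap numbered 6, 1 and 3 to 7 in 2WM against SD (7 without SD mouse 4), and in EOW against 2WM 1 with neqc, 1 with quantile normalization, 1 with the second array and 2 to 7 with a mouse left out (7 without EOW mouse 5, where 7.02% of all probes did not overlap). The share of all probes without overlap was taken in the main fit and without EOW mouse 4 or 5 only. The median of matrix probes in EOW against SD was 0.54 with neqc, 0.047 with no filter and 0.23 to 0.40 with a mouse left out. The share of higher probes among all at an unadjusted p of 0.05 was 15.2% with median centring, in place of 40.4%, in EOW against SD, 6.85% in place of 37.5% in 2WM against SD, where quantile normalization gave 48.3%, and 65.2% in place of 49.3% in EOW against 2WM, with 6 matrix probes higher and 1 lower (6.14% and 3.28% of all probes). Replicate numbers did not pair the mice (r of deviations of same-numbered mice -0.38 to 0.33, 4 of 13 mice best matched by their own number). With the replicate number as a block, which drops EOW mouse 5, the counts at an unadjusted p of 0.05 were 3 in 2WM against SD (6.17% of all probes), 11 in EOW against 2WM (11.5%) and 14 over 3 groups. In that setting 12 matrix probes in EOW against SD (6.77% of all probes) and 7 in EOW against 2WM (7.02%) did not overlap. Genes near the array median have signals close to background.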
